A study of Mus musculus with 22 samples.

Results

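The genes described here are 31 genes of the enteric nervous system, chosen by symbol as pan-neuronal genes and as genes of excitatory and inhibitory neurons. All 31 were found among the 46078 genes of the count table, of which 30466 had at least 1 count. Expression was measured by sequencing poly(A) RNA of distal colon from 22 mice. C57BL/6 mice (wild type, aged 14 weeks, 4 males and 4 females) were compared with Winnie mice (aged 14 weeks, 3 males and 4 females), which have a missense mutation in Muc2, the gene of the main secreted mucin of the colon, and spontaneously become colitic. The third group, labelled Winnie Prolapse and called Winnie-Prolapse here, comprised 4 male and 3 female Winnie mice labelled as severely inflamed. They were aged 18 weeks, so age and prolapse cannot be told apart. The labels name no agent given to any group, each library carries a name of its own and tissue was taken from each mouse, and the C57BL/6 and Winnie mice of 14 weeks shared a breeding colony.

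The enteric nervous system lies within the gut wall, in the myenteric plexus between the muscle layers and in the submucosal plexus below the mucosa. Its excitatory motor neurons release acetylcholine and tachykinins and contract the muscle, while its inhibitory motor neurons release nitric oxide and vasoactive intestinal peptide and relax it. Sensory neurons and interneurons join them in local circuits, and enteric glia surround the nerve cells. The nerve cells are a small part of the cells of the colon, so their transcripts are read in bulk tissue against RNA of epithelium, muscle and leukocytes. A lower level in bulk tissue can mean fewer nerve cells or less RNA per cell, and these cannot be told apart here.

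Libraries held 24.8 to 36.3 M counts, and levels are given as CPM, counts per M of the library total. A gene with 0 counts could have had up to 3, or 0.0825 to 0.121 CPM depending on the library, for counting error only. Epithelial genes summed to 11965 to 22227 CPM over the 22 libraries and smooth muscle genes to 1683 to 15134, so both wall layers were represented. The 8 milk genes checked held 18.98% of the counts of Winnie-Prolapse replicate 6 and at most 0.00252% of any C57BL/6 library. C57BL/6 replicate 7 was the highest library of its group for 24 of the 31 genes, Winnie replicate 5 for 26 and Winnie-Prolapse replicate 3 for 20. Winnie-Prolapse replicate 6 was the lowest of its group for 16 genes. Its milk counts are part of its library total, which lowers the CPM of all its other genes. Mitochondrial genes held 6.53% to 7.78% of counts in C57BL/6, 5.08% to 8.56% in Winnie and 3.58% to 5.95% in Winnie-Prolapse.

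Per kilobase of exon, the highest of the 31 genes in C57BL/6 was Penk, which encodes the enkephalin precursor, at a mean of 12.7 CPM per kb. Uchl1, a ubiquitin hydrolase abundant in nerve cells, followed at 10.8, then Scg2, a granin of dense-core vesicles, at 10.04 and Vip, the vasoactive intestinal peptide, at 9.73 CPM per kb. The lowest were Elavl2 at 0.125 and Th at 0.0720 CPM per kb. In Winnie-Prolapse the order differed at the top: Tac1, the precursor of substance P, was first at 12.4 CPM per kb after standing 12th in C57BL/6 at 4.96, and Ret moved from 19th at 2.29 to 8th at 2.004 while other genes stood lower. Tyrosine hydroxylase (Th), the first enzyme of catecholamine synthesis, ranged from 0.0393 to 0.41 CPM in C57BL/6, from 0 to 0.164 in Winnie and from 0 to 0.938 in Winnie-Prolapse. Th had 0 counts in 2 Winnie libraries and 1 Winnie-Prolapse library, failed the low-count filter in each comparison and was therefore not tested.

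In Winnie mice at 14 weeks, transcripts of nerve cells were lower than in C57BL/6 across nearly all roles, but none passed the limits of the study, an adjusted p under 0.001 with at least a 1.5-fold change. By edgeR's quasi-likelihood test, 0 of 30 tested genes were called lower, with 0.00578% of all 17289 genes tested called lower, and 0 were called higher against a background of 0.0868%. At an unadjusted p under 0.05 there were 29 of 30, with 39.9% of all genes. At the looser limit of an adjusted p under 0.05 with the same fold, 26 were lower and 0 higher, with 8.53% of all genes lower and 7.42% higher. In females alone 0 of the 30 were lower at that limit, with 0% of all 17260 genes and a median log2 fold change of -1.19. The median log2 fold change of the 30 genes was -1.23, with -0.01 over all genes tested. The groups did not overlap for 1 gene, Nefl, where 1.17% of all genes were lower without overlap and 0.463% higher. DESeq2 called 17 of the genes lower at the limits of the study, with 1.58% of all genes, and limma-voom 0, with 0%. Without Winnie replicate 5, edgeR called 14 lower, with 1.38% of all genes. Without both that library and C57BL/6 replicate 7, a setting chosen after the data were seen, 17 were called lower, with 2.24% of all genes.

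In Winnie-Prolapse mice at 18 weeks, 20 of 30 tested genes were lower than in C57BL/6 at the limits of the study (edgeR, adjusted p under 0.001 and 1.5-fold), with 8.47% of all 17397 genes called lower, and 0 were called higher, with 9.84% of all genes called higher. The 20 were all 3 Hu protein genes, all 8 genes of the cytoskeleton and axon growth, 3 of 4 vesicle genes, Hand2, 4 of 5 excitatory genes and Nos1. At the looser limit 26 genes were lower, with 17.7% of all genes, and 1, Tac1, was higher, with 16.7%. At an unadjusted p under 0.05 there were 27 of 30, with 58.5% of all genes. The median log2 fold change was -1.93, against -0.01 over all genes. No Winnie-Prolapse library reached the lowest C57BL/6 library for 19 of the 31 genes, and 9.45% of all genes were lower without overlap. The reverse held for 0 of them, with 6.5% of all genes. DESeq2 called 24 of 31 lower, with 7.69% of all genes, and 1, Tac1, higher, with 9.16%. With 1 library left out in turn, 18 to 24 genes were called lower, with 5.98% to 9.46% of all genes, the 24 without Winnie-Prolapse replicate 3, with 9.46%. Without both C57BL/6 replicate 7 and Winnie-Prolapse replicate 6, 18 were called lower, with 7.7% of all genes, and 24 were lower at the looser limit, with 16.6%. That setting was chosen after the data were seen. It leaves out the highest C57BL/6 library for 24 genes and the lowest Winnie-Prolapse library for 16, which brings the groups closer by the choice itself. Both comparisons share the C57BL/6 libraries. The genes that missed the looser limit were Tac1, Npy, Cartpt and Grp in Winnie, and Ret, Npy and Cartpt in Winnie-Prolapse.

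**Figure D1:**
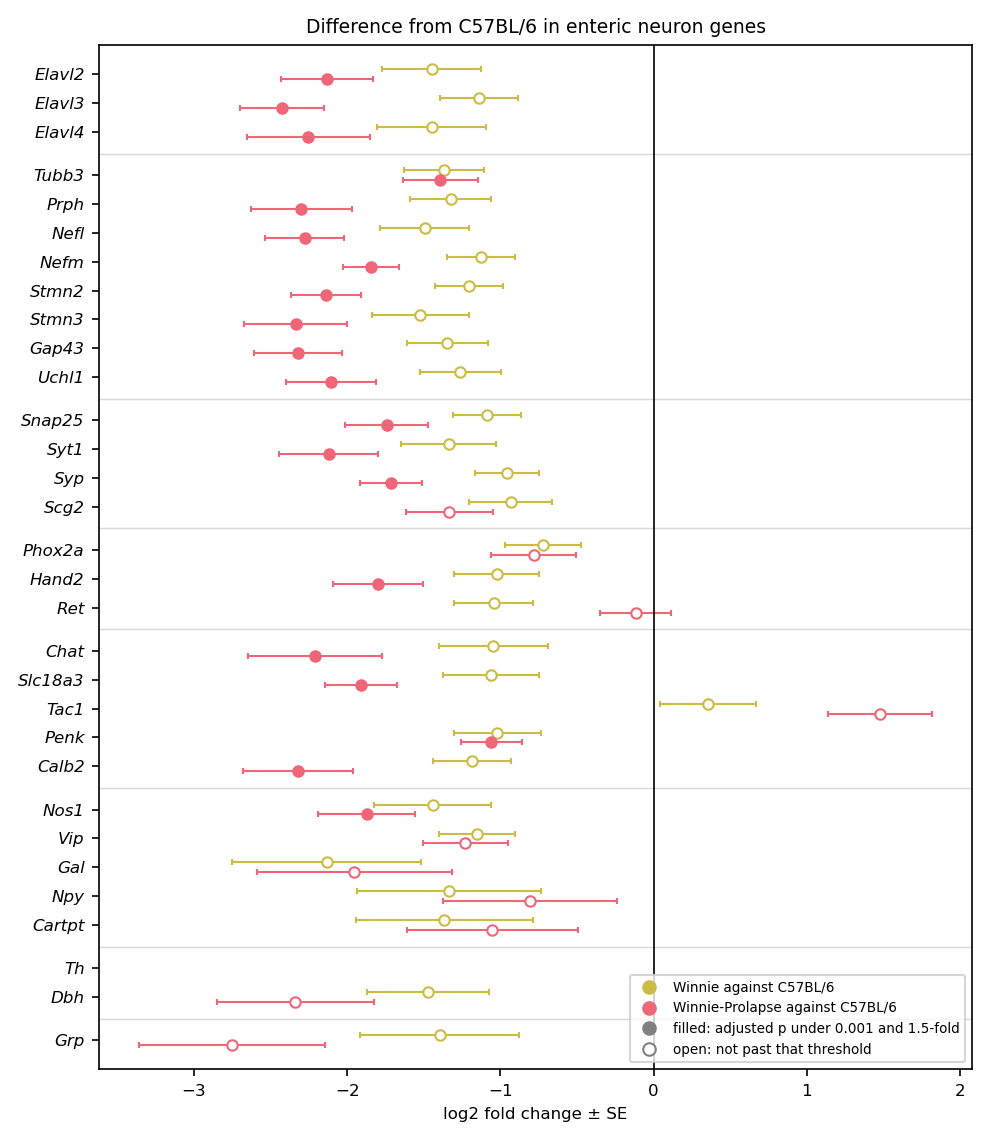
Log2 fold change ± SE of each tested gene against C57BL/6, in Winnie (yellow) and Winnie-Prolapse (red), grouped by role. Filled points passed an adjusted p under 0.001 and 1.5-fold: 0 in Winnie and 20 in Winnie-Prolapse. Tac1 alone lies to the right of 0 in both comparisons, and Ret in Winnie-Prolapse lies near 0.

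The Hu proteins encoded by Elavl2, Elavl3 and Elavl4 bind RNA in nerve cells and are the usual stain for counting enteric neurons. Elavl4 had a lowest, median and highest level of 6.70, 11.1 and 23.3 CPM in C57BL/6, of 2.21, 2.78 and 10.4 in Winnie, and of 0.604, 2.13 and 5.48 in Winnie-Prolapse. Every Winnie-Prolapse library lay below every C57BL/6 library, and 6 of 7 Winnie libraries did. Elavl4 was 2.73-fold lower in Winnie (log2 -1.45, SE 0.36, adjusted p = 0.0108, edgeR) and 4.77-fold lower in Winnie-Prolapse (log2 -2.25, SE 0.40, adjusted p = 0.000277). Elavl3 ran from 4.09 through a median of 6.11 to 7.75 CPM in C57BL/6, from 1.12 through 2.33 to 5.05 in Winnie, and from 0.588 through 0.905 to 2.12 in Winnie-Prolapse. It was 2.20-fold lower in Winnie (adjusted p = 0.0075) and 5.37-fold lower in Winnie-Prolapse (adjusted p = 5.18e-06), with the prolapsed group apart from the control group. Elavl2 was scarce, with a mean ± SD of 1.04 ± 0.38 CPM over 8 C57BL/6 mice, 0.36 ± 0.20 over 7 Winnie mice and 0.221 ± 0.116 over 7 Winnie-Prolapse mice, where it rested on 3 to 13 counts a library.

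The 8 genes of the cytoskeleton and of axon growth were lower together. Their log2 fold changes lay between -1.52 and -1.13 in Winnie, where all 8 passed the looser limit, with 8.53% of all genes lower. In Winnie-Prolapse they lay between -2.34 and -1.39, and all 8 passed the limits of the study without overlap. Of all genes, 8.47% were called lower there and 9.45% were lower without overlap. Nefl, the light chain of neurofilaments, was at 5.82, 7.25 and 15.2 CPM in C57BL/6 (lowest, median, highest), at 1.27, 2.01 and 5.15 in Winnie, and at 1.04, 1.55 and 2.48 in Winnie-Prolapse. Nefl was the single gene of the 31 whose Winnie libraries all lay below the C57BL/6 libraries, 2.82-fold lower (log2 -1.49, SE 0.29, adjusted p = 0.00413, edgeR). In Winnie-Prolapse it was 4.84-fold lower (adjusted p = 5.59e-06). Stmn2, a stathmin of growing and regenerating axons, was at 18.8, 23.7 and 40.3 CPM in C57BL/6, at 5.70, 10.4 and 18.9 in Winnie, and at 2.62, 5.35 and 9.02 in Winnie-Prolapse. It was 2.31-fold lower in Winnie (adjusted p = 0.0034) and 4.40-fold lower in Winnie-Prolapse (adjusted p = 3.59e-06), and the highest Winnie library barely passed the lowest C57BL/6 library. Gap43, a growth cone protein, was 2.54-fold lower in Winnie and 4.99-fold lower in Winnie-Prolapse. Tubb3, the neuronal beta tubulin, was the least reduced of the 8 in Winnie-Prolapse, 2.62-fold lower, close to its 2.58-fold in Winnie. The remaining genes of this role, Prph, Nefm, Stmn3 and Uchl1, were 2.18-fold to 2.87-fold lower in Winnie and 3.59-fold to 5.05-fold lower in Winnie-Prolapse. Nefl at chr14:68083863-68089095 and Nefm at chr14:68082590-68124846 (GRCm38) share exon bases on opposite strands, so their counts may not be independent.

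The 4 vesicle genes serve the release of transmitter from vesicles. Snap25, a SNARE protein of the presynaptic membrane, was at 14.98, 21.0 and 34.7 CPM in C57BL/6 (lowest, median, highest), at 6.04, 8.997 and 17.5 in Winnie, and at 2.62, 5.92 and 12.0 in Winnie-Prolapse. It was 2.12-fold lower in Winnie (log2 -1.09, SE 0.22, adjusted p = 0.00521, edgeR) and 3.34-fold lower in Winnie-Prolapse (log2 -1.74, SE 0.27, adjusted p = 8.45e-05), where the groups did not overlap. Syt1, the calcium sensor of vesicle fusion, and Syp, a protein of the vesicle membrane, were 4.35-fold and 3.28-fold lower in Winnie-Prolapse (adjusted p = 7.81e-05 and 8.89e-06). Scg2 had 13.2, 24.7 and 47.3 CPM in C57BL/6, 7.13, 11.5 and 23.6 in Winnie, and 6.04, 8.24 and 16.5 in Winnie-Prolapse, and was the one vesicle gene that missed the limits of the study there (2.52-fold lower, adjusted p = 0.0011). Enteroendocrine cells also store granins, and 6 of 7 Winnie-Prolapse libraries lay below the lowest C57BL/6 library for Scg2.

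**Figure D2:**
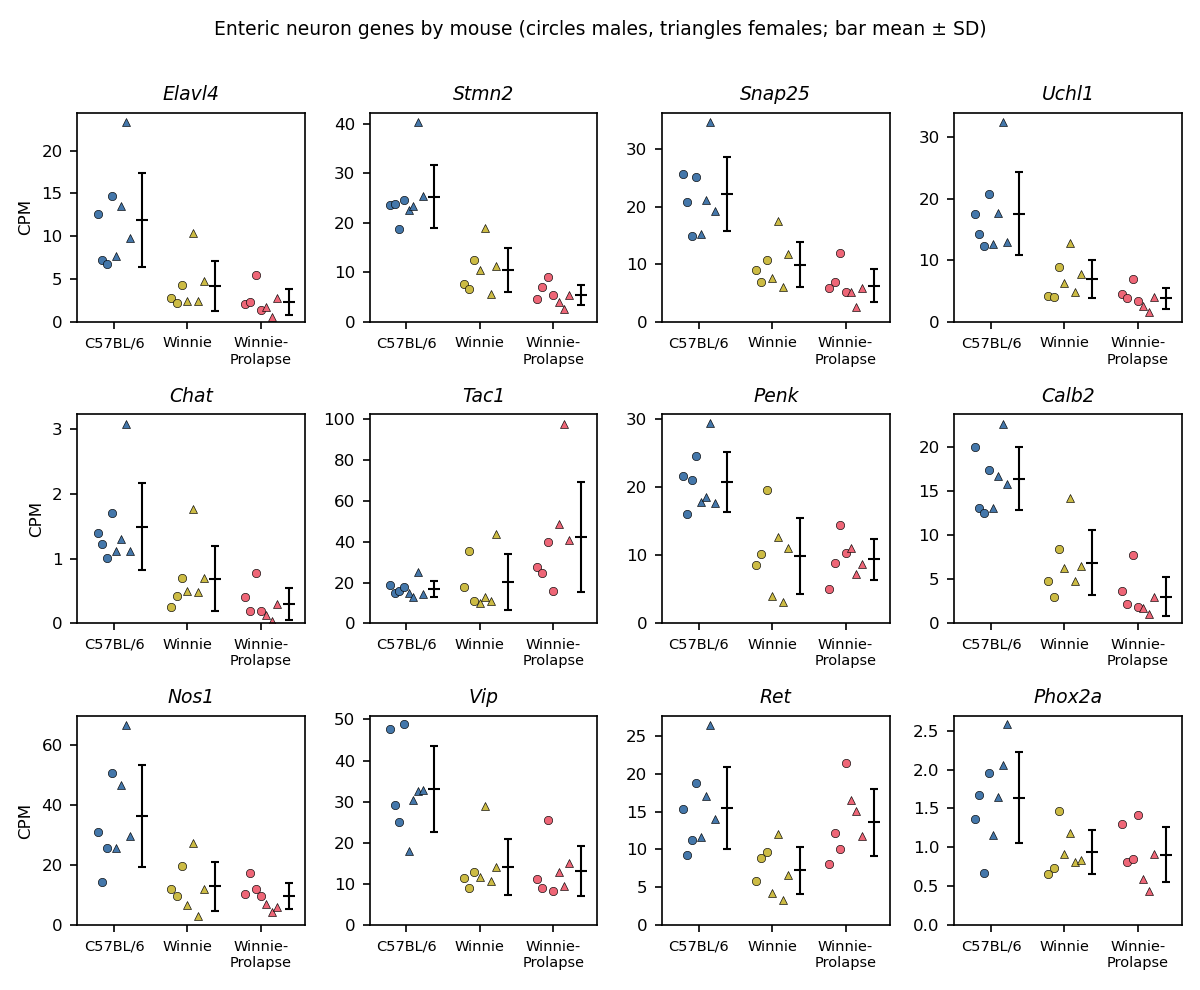
CPM of 12 genes in each mouse (circles males, triangles females), with the group mean ± SD as a bar. Elavl4, Stmn2, Snap25, Uchl1, Chat, Penk and Calb2 have every Winnie-Prolapse mouse below every C57BL/6 mouse, while Tac1 reaches 97.7 CPM in a Winnie-Prolapse female and the 3 groups overlap for Ret and Phox2a.

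The 3 genes of lineage formation did not follow one course. Hand2 and Phox2a are transcription factors of enteric and autonomic nerve cells, and Ret is the receptor for glial cell line-derived neurotrophic factors on which the precursors depend. Hand2, which is also expressed in gut mesenchyme, was at 13.6, 18.97 and 41.8 CPM in C57BL/6 (lowest, median, highest), at 5.09, 7.59 and 18.97 in Winnie, and at 2.62, 5.72 and 11.1 in Winnie-Prolapse. It was 2.03-fold lower in Winnie (adjusted p = 0.0161, edgeR) and 3.48-fold lower in Winnie-Prolapse (adjusted p = 0.000135), with no overlap in the latter. Phox2a had 0.667, 1.66 and 2.58 CPM in C57BL/6, 0.660, 0.837 and 1.47 in Winnie, and 0.443, 0.847 and 1.42 in Winnie-Prolapse, and the groups overlapped in each comparison. It was 1.65-fold lower in Winnie (adjusted p = 0.0422) and 1.72-fold lower in Winnie-Prolapse (adjusted p = 0.0256), and missed the looser limit in 11 of 15 fits with 1 library left out in Winnie (highest adjusted p = 0.0921) and in 4 of 15 in Winnie-Prolapse (highest adjusted p = 0.0588). Exons of Phox2a overlap those of Inppl1 on the opposite strand, which had a mean of 97.3 CPM, and the strand setting of the counting is not given in the sources used here. Antisense genes also share exon bases with Hand2 (Hand2os1, mean 4.96 CPM), Syp (0.35 CPM), Uchl1, Penk and Nos1 (each under 0.1 CPM). Elavl3 shares exon bases with Gm49318 on the same strand, and no level was obtained for Gm49318.

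Ret, at chr6:118151745-118197718 (GRCm38, minus strand), was lower in Winnie and not in Winnie-Prolapse. Its lowest, median and highest levels were 9.30, 14.7 and 26.5 CPM in C57BL/6, 3.37, 6.66 and 12.0 in Winnie, and 8.02, 12.2 and 21.4 in Winnie-Prolapse. In 5 of 7 Winnie libraries Ret lay below the lowest C57BL/6 library, and in 1 of 7 Winnie-Prolapse libraries. It was 2.06-fold lower in Winnie (log2 -1.04, SE 0.26, adjusted p = 0.011, edgeR), and against C57BL/6 its log2 fold change in Winnie-Prolapse was -0.12 (SE 0.23, adjusted p = 0.691). Winnie-Prolapse against Winnie gave 1.92-fold more Ret (log2 0.94, SE 0.26, adjusted p = 0.0393), where 4 of 7 Winnie-Prolapse libraries exceeded every Winnie library. That difference missed the looser limit in 9 of 14 fits with 1 library left out, with the highest adjusted p of 0.0827 without Winnie-Prolapse replicate 6, and in the fit with sex as a covariate (adjusted p = 0.0556). Ret is also expressed by some leukocytes, and the summed level of 10 leukocyte genes was 75.3 to 378 CPM in C57BL/6, 184 to 408 in Winnie and 301 to 1485 in Winnie-Prolapse. The part of these cells in the level of Ret was not tested.

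Of the 5 genes of excitatory neurons, 4 were lower at the looser limit in Winnie, with 8.53% of all genes. At the limits of the study 0 were called lower there, with 0.00578% of all genes. In Winnie-Prolapse 4 were called lower at the limits of the study, with 8.47% of all genes. Choline acetyltransferase (Chat) makes acetylcholine, and Slc18a3 is the transporter that loads it into vesicles. Slc18a3 lies within the Chat locus (chr14:32462438-32464850 within chr14:32408203-32465989, GRCm38), with no shared exon bases. Chat was at 1.02, 1.26 and 3.08 CPM in C57BL/6 (lowest, median, highest), at 0.248, 0.507 and 1.77 in Winnie, and at 0.0403, 0.198 and 0.787 in Winnie-Prolapse, where it rested on 1 to 26 counts a library. It was 2.07-fold lower in Winnie (adjusted p = 0.0411, edgeR) and 4.63-fold lower in Winnie-Prolapse (adjusted p = 0.000609). The latter call stood in 6 of 15 fits with 1 library left out (highest adjusted p = 0.00185), and the former missed the looser limit in 10 of 15 (highest adjusted p = 0.0859). Slc18a3 had 2.09, 2.67 and 4.13 CPM in C57BL/6, 0.489, 0.991 and 2.82 in Winnie, and 0.490, 0.647 and 1.07 in Winnie-Prolapse. It was 2.08-fold lower in Winnie (adjusted p = 0.0232) and 3.76-fold lower in Winnie-Prolapse (adjusted p = 1.08e-05), and its call stood in 15 of 15 such fits in Winnie-Prolapse. Without Winnie replicate 1 its adjusted p in Winnie was 0.0532.

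Calb2, the calcium-binding protein calretinin of excitatory neurons and interneurons, was at 12.5, 16.3 and 22.6 CPM in C57BL/6 (lowest, median, highest), at 3.04, 6.28 and 14.3 in Winnie, and at 1.09, 2.23 and 7.72 in Winnie-Prolapse. Calb2 was 2.27-fold lower in Winnie (adjusted p = 0.00613, edgeR) and 4.99-fold lower in Winnie-Prolapse (adjusted p = 8.34e-05), and all but Winnie replicate 5 lay below the C57BL/6 group. Penk was at 16.1, 19.7 and 29.4 CPM in C57BL/6, at 3.08, 10.2 and 19.5 in Winnie, and at 5.12, 8.86 and 14.4 in Winnie-Prolapse. It was 2.03-fold lower in Winnie (adjusted p = 0.0184) and 2.08-fold lower in Winnie-Prolapse (adjusted p = 0.000451), and between these groups its log2 fold change was -0.03 (SE 0.33). The call for Penk in Winnie-Prolapse stood in 7 of 15 fits with 1 library left out, with a highest adjusted p of 0.00137.

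Tac1 went the other way. The gene lies at chr6:7554879-7565834 (GRCm38, plus strand) and is expressed by excitatory and sensory neurons and also by enterochromaffin cells of the epithelium. Tac1 was at 12.9, 15.4 and 24.99 CPM in C57BL/6 (lowest, median, highest), at 9.96, 12.8 and 43.9 in Winnie, and at 15.9, 39.6 and 97.7 in Winnie-Prolapse. In Winnie, 4 of 7 libraries lay below every C57BL/6 library and 2 above, and the log2 fold change was 0.35 (SE 0.31, adjusted p = 0.42, edgeR). In Winnie-Prolapse, 5 of 7 libraries lay above every C57BL/6 library and Tac1 was 2.78-fold higher (log2 1.48, SE 0.34, adjusted p = 0.00202), past the looser limit but not the limits of the study, which it passed by DESeq2 (log2 1.495, adjusted p = 6.51e-05). The highest value, 97.7 CPM, was in the library with milk transcripts, Winnie-Prolapse replicate 6. Without it the mean was 32.9 ± 12.1 CPM (SD, n = 6) and the log2 fold change 1.05 (adjusted p = 0.00226). By sex, the log2 fold change was 0.75 in males alone (adjusted p = 0.0899) and 2.10 in females alone (adjusted p = 0.00813). The edgeR test of that difference gave an unadjusted p of 0.0684 and an adjusted p of 0.961. Winnie-Prolapse replicate 6 was among the 3 Winnie-Prolapse females, and the others had 48.4 and 40.8 CPM. The summed level of 12 enteroendocrine genes was 245 to 480 CPM in C57BL/6, 268 to 453 in Winnie and 204 to 380 in Winnie-Prolapse, with 2 of 11 tested genes called lower and 0 higher in Winnie-Prolapse (8.47% and 9.84% of all genes). The 3 most abundant of them differed: between C57BL/6 and Winnie-Prolapse, the granin Chga had means of 58.0 and 26.3 CPM, the granin Chgb of 75.5 and 55.7, and the hormone peptide YY (Pyy) of 106 and 133. The part of epithelial cells in the level of Tac1 was not tested.

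Of the 5 genes of inhibitory neurons, 3 were lower at the looser limit in both Winnie and Winnie-Prolapse, with 8.53% and 17.7% of all genes. Neuronal nitric oxide synthase (Nos1) was at 14.3, 30.1 and 66.4 CPM in C57BL/6 (lowest, median, highest), at 3.16, 11.9 and 27.2 in Winnie, and at 4.31, 9.65 and 17.3 in Winnie-Prolapse. It was 2.71-fold lower in Winnie (log2 -1.44, SE 0.38, adjusted p = 0.0149, edgeR) and 3.66-fold lower in Winnie-Prolapse (log2 -1.87, SE 0.32, adjusted p = 0.000187), and 1 Winnie-Prolapse library reached the lowest C57BL/6 library. Vip was at 18.1, 31.6 and 48.8 CPM in C57BL/6, at 9.07, 11.6 and 29.0 in Winnie, and at 8.20, 11.1 and 25.6 in Winnie-Prolapse. It was 2.22-fold lower in Winnie (adjusted p = 0.00618) and 2.34-fold lower in Winnie-Prolapse (adjusted p = 0.0018), with 6 of 7 libraries below the C57BL/6 range in each. Between the 2 disease groups Vip differed by -0.07 on the log2 scale (SE 0.31, adjusted p = 0.906). Galanin (Gal) was at 1.31, 3.22 and 19.1 CPM in C57BL/6, at 0.405, 0.705 and 3.05 in Winnie, and at 0.496, 0.785 and 3.06 in Winnie-Prolapse, and was 4.39-fold lower in Winnie (adjusted p = 0.0209) and 3.87-fold lower in Winnie-Prolapse (adjusted p = 0.0171). C57BL/6 replicate 7 held the highest value of Gal. Without that library its log2 fold change went from -2.13 to -1.35 in Winnie (adjusted p = 0.0337) and from -1.95 to -1.14 in Winnie-Prolapse (adjusted p = 0.0491). Without Winnie-Prolapse replicate 6 as well, Gal missed the looser limit in Winnie-Prolapse (log2 -1.05, adjusted p = 0.0883). Neuropeptide Y (Npy), with 0.0362 to 4.07 CPM in C57BL/6, and Cartpt, the precursor of the CART peptide, with 0.708 to 6.67, missed the looser limit in both comparisons (adjusted p = 0.109 and 0.0891 in Winnie, 0.241 and 0.123 in Winnie-Prolapse).

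Dopamine beta-hydroxylase (Dbh), the enzyme that makes noradrenaline, was at 1.93, 4.76 and 8.23 CPM in C57BL/6 (lowest, median, highest), at 0.935, 1.18 and 4.76 in Winnie, and at 0.162, 0.654 and 2.24 in Winnie-Prolapse. Dbh was 2.77-fold lower in Winnie (adjusted p = 0.0162, edgeR) and 5.06-fold lower in Winnie-Prolapse (adjusted p = 0.0014), and 6 of 7 libraries of each group lay below the C57BL/6 range. Gastrin-releasing peptide (Grp), a peptide of enteric interneurons, was at 0.984, 2.88 and 10.5 CPM in C57BL/6, at 0.578, 0.937 and 3.61 in Winnie, and at 0.121, 0.360 and 1.54 in Winnie-Prolapse. Grp had the largest fold of the 30 genes in Winnie-Prolapse, 6.74-fold lower (log2 -2.75, SE 0.61, adjusted p = 0.00146), but missed the limits of the study there and the looser limit in Winnie (adjusted p = 0.0565). The Winnie-Prolapse libraries held 3 to 51 counts of Grp, and without replicate 3, the highest, its log2 fold change was -3.46 (adjusted p = 0.000125), past the limits of the study.

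**Figure D3:**
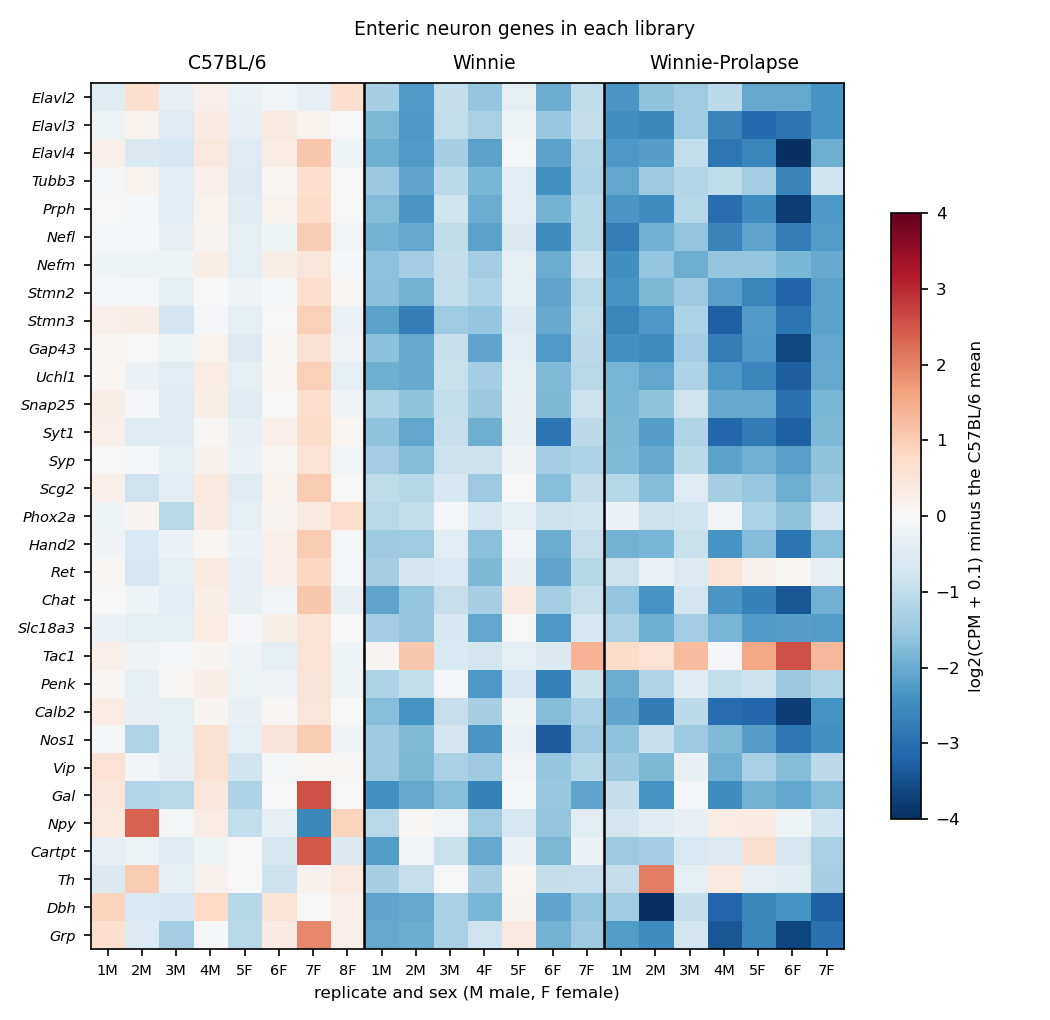
Log2(CPM + 0.1) of the 31 genes in each library, minus the mean of the C57BL/6 libraries (blue lower, red higher), with columns by replicate number and sex. The column of Winnie replicate 5 is the palest of its group, and Tac1 is the one row that is above the C57BL/6 mean in most Winnie-Prolapse columns.

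Winnie-Prolapse mice were then compared with Winnie mice. By edgeR, 0 of 29 tested genes were called lower and 0 higher at the limits of the study, with 0% of all 17041 genes called in each direction. DESeq2 called 0 of 31 each way, with 0.57% of all genes lower and 1.65% higher. By limma-voom 0 of 29 were called, with 0% of all genes each way. At the looser limit 1 gene, Elavl3, was lower (with 2.72% of all genes lower) and 1, Ret, was higher (with 4.27% higher), and 16 of 29 had an unadjusted p under 0.05, with 27.8% of all genes. The difference for Elavl3 was -1.28 on the log2 scale (SE 0.35, adjusted p = 0.0378), with 6 of 7 Winnie-Prolapse libraries below every Winnie library, and it missed the looser limit in 10 of 14 fits with 1 library left out (highest adjusted p = 0.0831, without Winnie replicate 5). Stmn2 was the next lowest by adjusted p (log2 -0.92, SE 0.28, adjusted p = 0.0538). The median log2 fold change of the 29 genes was -0.76, with 0.01 over all genes, and 24 of 29 were below 0. These counts and the median moved with single libraries and with the method. Without Winnie-Prolapse replicate 3, 12 of the genes were lower at the looser limit, with 4.9% of all genes, and the median was -0.97. With any other library left out, 0 to 3 were lower, with 0.929% to 4.57% of all genes. DESeq2, the joint fit of the 3 groups and females alone gave 6 lower each, with 2.96%, 4.04% and 6.25% of all genes. Males alone gave 0, with 0% of all genes. The median was -1.04 in females alone, -0.14 in males alone, and -0.40 without both Winnie replicate 5 and Winnie-Prolapse replicate 6. Both libraries were from females and were left out after the data were seen. The former was the highest of its group for 26 of the 31 genes and the latter the lowest for 16. Leaving them out brings the groups closer by the choice itself. Winnie-Prolapse replicate 3, the highest of its group for 20 genes, was from a male. The part of these libraries in the medians by sex was not tested. Tac1 was 2.20-fold higher with an adjusted p of 0.129. Groups overlapped for all 31 genes, while 0.552% of all genes were lower and 0.411% higher without overlap. These mice differed in age as well as in prolapse.

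Males and females were compared within the differences from C57BL/6, over all 22 libraries with a term for sex by group. By edgeR, 0 of the 30 tested genes and 0 of all 17769 genes passed an adjusted p under 0.05 in either disease group. At an unadjusted p under 0.05 there were 0 of the 30 in each, with 13.6% of all genes in Winnie and 4.97% in Winnie-Prolapse. DESeq2 called 0 of these genes in each, with 173 and 4 of all 30466 genes. It had 0 and 2 of them at an unadjusted p under 0.05, with 9.44% and 3.83% of all genes. In Winnie-Prolapse the number of the 30 at an unadjusted p under 0.05 by edgeR ran from 0 to 6 with 1 library left out, the 6 without Winnie-Prolapse replicate 7, with 7.75% of all genes. By edgeR the lowest adjusted p was 0.423 for Vip in Winnie, whose log2 difference from C57BL/6 was 1.03 lower in males than in females (log2 -1.03, SE 0.56), and 0.961 in Winnie-Prolapse. In Winnie-Prolapse the log2 difference was higher in males than in females for all of the 30 genes but Vip, Tac1 and Npy. The lowest unadjusted p there was 0.052, for Phox2a (edgeR). The genes share the same libraries, so their signs are not independent. With 3 or 4 mice of each sex in a group these intervals are wide. In Winnie against C57BL/6, males alone gave 22 of the 30 genes lower at the looser limit, with 10.7% of all genes and a median log2 fold change of -1.43. Females alone gave 0 of the 30 and 0 of all 17260 genes lower, with a median of -1.19. In Winnie-Prolapse against C57BL/6, males alone gave 21 lower, with 11.2% of all genes and a median of -1.60, and females alone gave 26, with 13.4% and a median of -2.50. The libraries that stood apart divide by sex. C57BL/6 replicate 7, Winnie replicate 5 and Winnie-Prolapse replicate 6 were from females, and Winnie-Prolapse replicate 3 was from a male. The part of these single libraries in the male and female medians was not tested. At the limits of the study, males alone and females alone each gave 0 of the 30 lower, where 0.339% and 0.177% of all genes were called lower in Winnie-Prolapse and 0.102% and 0% in Winnie, so these counts say nothing particular to the 30.

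A further list of 40 genes expressed by neurons, none of them among the 31, was read in the same fits. It includes receptors, synaptic vesicle proteins and axonal proteins such as Gfra1, Slc5a7, Syn1 and Mapt. In Winnie, 28 of 38 tested genes of this list were lower at the looser limit (8.53% of all genes) and 0 higher (7.42%), with a median log2 fold change of -1.08. In Winnie-Prolapse, 24 of 38 were called lower at the limits of the study (8.47% of all genes) and 0 higher (9.84%), with a median of -1.82. Of its 3 most abundant genes, Dpysl3, an axon guidance protein, had a mean ± SD of 54.7 ± 10.9 CPM over 8 C57BL/6 mice, 29.5 ± 10.3 over 7 Winnie mice and 27.1 ± 6.16 over 7 Winnie-Prolapse mice. Map1b, a microtubule protein, was at 59.0 ± 12.0, 34.3 ± 12.4 and 26.3 ± 5.60 CPM in the same order. L1cam, an adhesion molecule also known in epithelium, was at 112 ± 12.7, 130 ± 14.0 and 109 ± 20.2 CPM, with log2 fold changes of 0.28 (adjusted p = 0.0125) and 0.03 (adjusted p = 0.802). The list is of the same kind as the 31 genes and was drawn up with earlier results known.

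At the looser limit, most smooth muscle genes and 7 of 11 tested glial genes were lower in each Winnie group. The shares of all genes were 8.53% in Winnie and 17.7% in Winnie-Prolapse. The 15 pan-neuronal genes (Hu proteins, cytoskeleton and vesicles) summed to 137, 189 and 324 CPM in C57BL/6 (lowest, median, highest), to 47.2, 64.0 and 154 in Winnie, and to 25.4, 47.7 and 87.3 in Winnie-Prolapse. The 12 smooth muscle genes summed to 7947 to 15134 CPM in C57BL/6, 2368 to 9101 in Winnie and 1683 to 3864 in Winnie-Prolapse. All 12 were called lower in Winnie-Prolapse (8.47% of all genes) with a median log2 fold change of -1.74, and 10 of 12 were lower at the looser limit in Winnie (8.53% of all genes) with a median of -0.87. Myh11, the smooth muscle myosin, had medians of 1933 CPM (C57BL/6), 848 CPM (Winnie) and 476 CPM (Winnie-Prolapse). Per 1000 CPM of smooth muscle, the pan-neuronal sum had a mean ± SD of 19.2 ± 3.94 over the C57BL/6 mice, 15.9 ± 3.74 over the Winnie mice and 18.6 ± 5.74 over the Winnie-Prolapse mice, and the 3 ranges overlapped. How much muscle layer each tissue piece held was not tested.

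When libraries were scaled to the smooth muscle counts in place of TMM factors, the median log2 fold change of all genes moved to 1.06 in Winnie and 1.91 in Winnie-Prolapse. On that scale the 30 neuronal genes had a median of -0.28 in Winnie and 0.01 in Winnie-Prolapse, and 0 were called lower in either, with 0.00578% and 0.126% of all genes. Tac1 was called higher in both (log2 1.37 and 3.39) and Ret in Winnie-Prolapse (log2 1.91, the same as the median of all genes), but on this scale 33.8% and 83.0% of all genes were called higher.

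**Figure D4:**
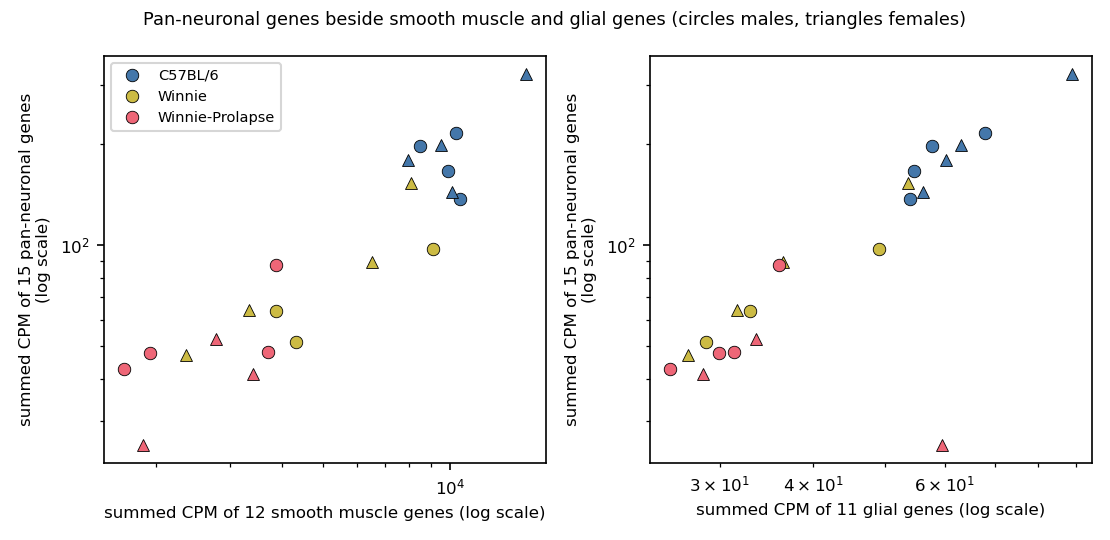
Summed CPM of the 15 pan-neuronal genes in each mouse (circles males, triangles females) against the summed CPM of 12 smooth muscle genes (left) and of 11 glial genes, Erbb3 left out (right), on log axes. The C57BL/6 mice lie at the upper right, the Winnie-Prolapse mice at the lower left in the left panel, and Winnie-Prolapse replicate 6 lies apart in the right panel at 59.6 and 25.4 CPM.

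Enteric glia were read from 12 genes, of which 7 of 11 tested were lower at the looser limit in each Winnie group, with 8.53% of all genes in Winnie and 17.7% in Winnie-Prolapse. At the limits of the study, 0 were called lower in Winnie and 4 in Winnie-Prolapse, with 0.00578% and 8.47% of all genes. Erbb3, which epithelium also expresses, made up most of the summed level, so the sum was taken without it, a choice made after its values were seen. The other 11 genes summed to 53.9 to 88.8 CPM in C57BL/6, 27.2 to 53.6 in Winnie and 25.7 to 59.6 in Winnie-Prolapse. The value of 59.6 was in Winnie-Prolapse replicate 6, in which Sox10 was at 33.7 CPM, against 0.621 to 1.27 in the other Winnie-Prolapse libraries and 2.15 to 4.89 in C57BL/6. Sox10 was singled out after its values were seen. Pan-neuronal transcripts per glial transcript had a mean ± SD of 3.07 ± 0.38 over the C57BL/6 mice, 2.11 ± 0.40 over the Winnie mice and 1.52 ± 0.58 over the Winnie-Prolapse mice, where replicate 6 gave 0.426 and the other libraries 1.45 to 2.43. With Sox10 left out too, the means ± SD were 3.24 ± 0.41, 2.22 ± 0.45 and 1.65 ± 0.45, and replicate 6 gave 0.983. That sum still held Cdh19, at 3.38 CPM in replicate 6, 0.556 to 1.27 in the other Winnie-Prolapse libraries and 2.02 to 8.30 in C57BL/6. With Sox10 kept in, the C57BL/6 range was 2.55 to 3.65 and the Winnie range 1.73 to 2.86, with an overlap through Winnie replicate 5. Pacemaker genes had medians of -0.03 in Winnie and -0.81 in Winnie-Prolapse on the log2 scale, enteroendocrine genes 0.09 and -0.60, epithelial genes 0.24 and 0.22, and leukocyte genes 0.74 and 1.47.

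Promoter sequence was read from RefSeq (GRCm38.p6) for 22 of the 31 genes, in 31 windows that run to 50 bases past a start given by RefSeq. Not matched were Calb2, Gap43, Grp, Nefl, Nefm, Penk, Ret, Snap25 and Stmn2. The cAMP response element TGACGTCA, the classical site of activity-dependent factors, was searched on both strands along with its half-site TGACG, which each full element holds on both strands, and the E-box CACGTG. The windows of Tac1, the gene that was higher, and of Scg2 and Vip, 2 secreted products that were lower, are given here with these letters in capitals on either strand. They lie at chr6:7554811-7555110 (plus strand), chr1:79439977-79440276 (minus strand) and chr10:5638968-5639267 (plus strand). The RefSeq start lies 182 bases inside the outermost GENCODE start for Tac1 and 94 bases inside it for Scg2, and both starts coincide for Vip.
Tac1: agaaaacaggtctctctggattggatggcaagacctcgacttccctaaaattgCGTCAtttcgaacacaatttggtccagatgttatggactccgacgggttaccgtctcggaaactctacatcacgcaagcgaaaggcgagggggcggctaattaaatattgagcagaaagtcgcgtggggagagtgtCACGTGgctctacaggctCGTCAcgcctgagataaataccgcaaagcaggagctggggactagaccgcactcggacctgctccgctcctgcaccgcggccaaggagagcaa
Scg2: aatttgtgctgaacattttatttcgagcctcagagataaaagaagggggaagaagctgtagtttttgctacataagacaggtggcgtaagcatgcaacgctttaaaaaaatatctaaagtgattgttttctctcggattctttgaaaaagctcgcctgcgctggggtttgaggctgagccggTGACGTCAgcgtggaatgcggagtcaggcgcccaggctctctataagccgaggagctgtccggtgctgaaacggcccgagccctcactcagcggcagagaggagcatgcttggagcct
Vip: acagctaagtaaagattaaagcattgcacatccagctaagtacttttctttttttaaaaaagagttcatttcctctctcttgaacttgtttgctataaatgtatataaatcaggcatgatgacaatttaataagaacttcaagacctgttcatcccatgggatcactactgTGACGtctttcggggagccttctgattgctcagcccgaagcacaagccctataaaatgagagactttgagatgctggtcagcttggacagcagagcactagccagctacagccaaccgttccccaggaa

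The full element stood in 3 of the 31 windows (Cartpt, Scg2 and Th), or 9.68%, with 1.79% of all 32851 windows of the same length. In Scg2 it began 68 bases before the RefSeq start. The half-site was found in 17 windows of 13 genes, or 54.8%, with 20.8% of all windows, and Tac1 held it at 197 and 43 bases and Vip at 79 bases before the RefSeq start. CACGTG was found in 2 windows (Chat and Tac1), or 6.45%, with 7.15% of all windows. The 31 windows come from 22 genes, so some belong to the same gene. They were not matched to all windows in base composition, and no difference in these shares was tested. The half-site was thus present both in Tac1, which was higher in Winnie-Prolapse, and in Vip and Scg2, which were lower. A match of letters describes the window and is not a measured binding site.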

How the data were processed

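Distal colon RNA of 22 mice was sequenced after poly(A) selection with a stranded kit. The authors used the RNAsik pipeline with the GRCm38 genome, featureCounts assigned reads to genes, and the deposited values are raw counts. STAR, featureCounts and limma are named in the submitters' processing notes. The annotation release, strand setting and treatment of multi-mapping reads are not given in the sources used here.

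The 31 genes, their roles and the other lists were chosen with earlier results of these data known. Groups, ages and sexes were read from the labels, and replicate numbers only name samples. The paper reports fewer Winnie colons than the labels hold, and all 7 labelled were used. The RNA extraction kit also differs between the labels and the paper. The labels name no batch. No pair of libraries was a duplicate (lowest chi-square per degree of freedom 28.8). Locations and exon lengths were taken from GENCODE M21.

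For the tests, edgeR 4.0.16 was run under R 4.3.3 on the counts (quasi-likelihood F test, TMM, filterByExpr, Benjamini-Hochberg over all genes tested), each comparison on its own 2 groups. A gene was called at an adjusted p under 0.001 and 1.5-fold, the limits of the study, and a second limit of 0.05 is given beside it. SE was taken from the log2 fold change and F. CPM values are counts over library totals. All 31 genes are named. From each other list the 3 most abundant genes could be named. Outside this rule Sox10 and Cdh19 were named, as were Gfra1, Slc5a7, Syn1 and Mapt as examples of their list. Alternatives were DESeq2 1.42.0, limma-voom 3.58.1, no TMM, no filter, a term for sex, a joint fit of the 3 groups, 1 sex alone, smooth muscle scaling and leaving out each library. Leaving out 3 libraries together was added after the data were seen. Library totals were 24.8 to 36.3 M counts. The fits were tested on simulated data.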

Additional observations from a re-analysis of the deposited data

Results flagged for a closer look

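In 30 of 93 sets of a gene and a group, 1 library stood far above the rest of its group. Chance gives about 1 in 20 for independent sets of normally distributed values. These sets share the same 22 libraries, 26 of the 30 fell in 3 of them, and all 30 were on the high side of CPM values, so that share does not apply here as it stands. C57BL/6 replicate 7 did so for 11 genes, with Prph at 24.7 CPM, Nefl at 15.2, Stmn2 at 40.3, Stmn3 at 11.6, Uchl1 at 32.4, Syt1 at 27.6, Hand2 at 41.8, Chat at 3.08, Gal at 19.1, Cartpt at 6.67 and Grp at 10.5 CPM. Winnie-Prolapse replicate 3 did so for 8, with Elavl3 at 2.12 CPM, Prph at 6.66, Stmn3 at 2.42, Hand2 at 11.1, Calb2 at 7.72, Vip at 25.6, Gal at 3.06 and Grp at 1.54 CPM. Winnie replicate 5 did so for 7, with Elavl4 at 10.4 CPM, Syp at 13.5, Chat at 1.77, Vip at 29.0, Gal at 3.05, Dbh at 4.76 and Grp at 3.61 CPM. The other 4 were Npy at 4.07 CPM in C57BL/6 replicate 2, Th at 0.938 in Winnie-Prolapse replicate 2, Cartpt at 1.86 in Winnie-Prolapse replicate 5 and Tac1 at 97.7 CPM in Winnie-Prolapse replicate 6.

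The smooth muscle sum was also the highest of its group in C57BL/6 replicate 7 at 15134 CPM and in Winnie-Prolapse replicate 3 at 3864, and it was 8083 CPM in Winnie replicate 5, second to 9101 in Winnie replicate 3. Its part in these values was not tested.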

How the results depend on the processing

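Winnie against C57BL/6 gave 0 genes called lower (0.00578% of all genes), but 26 at an adjusted p under 0.05 (8.53%) and 17 by DESeq2 (1.58%). It gave 17 (2.24%) without C57BL/6 replicate 7, Winnie replicate 5 and Winnie-Prolapse replicate 6 (the 3 libraries left out together). With 1 library left out it gave 0 to 14 (0% to 1.38% of all genes), the 14 without Winnie replicate 5. Winnie-Prolapse against C57BL/6 gave 20 called lower, with 8.47% of all genes, but 0 in males alone (0.339% of all genes), 0 in females alone (0.177%) and 0 scaled to smooth muscle (0.126%). It gave 0 called higher (9.84%), but 1 at an adjusted p under 0.05 (16.7%) and 1 by DESeq2 (9.16%), both Tac1, and 2 scaled to smooth muscle (83.0%). With 1 library left out, 0 to 1 were called higher (Tac1, without Winnie-Prolapse replicate 4, with 9.03% of all genes). Winnie-Prolapse against Winnie gave 0 each way (0% of all genes), but 1 lower (2.72%) and 1 higher (4.27%) at an adjusted p under 0.05. Scaled to smooth muscle, this comparison gave 1 higher, with 2.19% of all genes. That scaling also gave 1 higher for Winnie against C57BL/6 (0 otherwise), with 33.8% of all genes. The sex by group counts of these genes at an adjusted p under 0.05 were 0 in each setting run. The causes were not tested, except that 1 sex alone has fewer samples.

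Single genes changed sign in 50 values with all or several libraries and 20 with 1 library left out, and 35 of the 50 were the smooth muscle scaling, which raises the median of all genes. In that scaling log2 fold changes in Winnie were 0.051 for Syp, 0.021 for Scg2 and 0.23 for Phox2a. In Winnie-Prolapse against C57BL/6 they were 0.52 for Tubb3, 0.076 for Nefm, 0.080 for Snap25, 0.14 for Syp, 0.58 for Scg2, 1.18 for Phox2a, 0.030 for Hand2, 1.91 for Ret, 0.013 for Slc18a3, 0.81 for Penk, 0.058 for Nos1, 0.53 for Vip, 0.0076 for Gal, 1.02 for Npy and 1.01 for Cartpt. In Winnie-Prolapse against Winnie they were 0.087 for Elavl4, 0.9969 for Tubb3, 0.18 for Nefl, 0.29 for Nefm, 0.011 for Stmn3, 0.074 for Uchl1, 0.22 for Snap25, 0.20 for Syt1, 0.093 for Syp, 0.56 for Scg2, 0.95 for Phox2a, 0.15 for Hand2, 0.27 for Slc18a3, 1.001 for Penk, 0.67 for Nos1, 0.74 for Vip and 0.11 for Dbh. In Winnie-Prolapse against C57BL/6, Npy was at 0.25 in females alone. The rest were in Winnie-Prolapse against Winnie. Tubb3 was at 0.028 by limma-voom, 0.013 with sex as a covariate, 0.13 in males alone and 0.33 without the 3 libraries. Phox2a was at 0.23 in males alone and 0.084 without the 3 libraries. Penk was at 0.093 by limma-voom, 0.26 in females alone and 0.054 without the 3 libraries. Vip was at 0.0023 with sex as a covariate, 0.35 in males alone and 0.22 without the 3 libraries. Gal was at -0.68 in females alone and Cartpt at -0.050 in males alone. With 1 library left out, Ret ran from -0.23 to 0.050 in Winnie-Prolapse against C57BL/6, and in Winnie-Prolapse against Winnie Tubb3 ran from -0.16 to 0.21, Phox2a from -0.17 to 0.055, Penk from -0.21 to 0.20, Vip from -0.37 to 0.18, Gal from -0.32 to 0.72 and Cartpt from -0.053 to 0.52.

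No paired analysis was possible because replicate numbers were given in accession order and pair no animals. Depth limits Th, Elavl2, Chat, Npy and Grp, which had libraries with 4 counts or fewer.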
